A study of Homo sapiens with 12 samples.

Results

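Nonsense-mediated decay is the pathway by which cells destroy mRNAs whose stop codon lies upstream of an exon junction, and it also lowers a set of normal transcripts. UPF1 is its RNA helicase, UPF2 bridges UPF1 to the related proteins UPF3A and UPF3B, and these contact the exon junction complex that splicing leaves on mRNA. SMG1 is the kinase that phosphorylates UPF1, and SMG8 and SMG9 bind and regulate SMG1. Phosphorylated UPF1 recruits SMG6, an endonuclease, and SMG5, which helps to bring deadenylation, decapping and the removal of the phosphates. Several of the mRNAs for these factors are themselves substrates of the pathway, so that their levels are known to rise when decay is blocked. UPF1, UPF2, UPF3B, SMG1, SMG5 and SMG6 are described so, and UPF3A, SMG8 and SMG9 are not.

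The genes described here are UPF1, UPF2, UPF3A, UPF3B, SMG1, SMG5, SMG6, SMG8 and SMG9. They were chosen by name, as 9 of the 60664 genes in the count table, and all 9 passed the filter on low counts that left 17349 genes for testing. Their lowest count in any library was 100, for SMG8, and the highest 10846, for SMG1.

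The RNA came from a pair of B-cell acute lymphoblastic leukaemia cell lines grown in RPMI medium with serum. TOM-1 cells have a BCR-ABL1 fusion from the Philadelphia translocation. In RS4;11 cells the rearranged gene is KMT2A. The labels give both as genotype WT, tissue blood and cell type lymphoblast, and each stands for a single leukaemia. ADI-PEG20 is a pegylated arginine deiminase that removes arginine from the medium. The 4 groups were TOM-1 in control culture, TOM-1 with 1000 ng/ml ADI-PEG20, RS4;11 in control culture and RS4;11 with 1000 ng/ml ADI-PEG20. Each was sampled at 24 h, in 3 libraries of poly(A) RNA per group. Nothing in the labels says that replicates were separate cultures, so p-values measure only the spread between these libraries, which may be technical.

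Total counts ran from 18958144 to 35956959 per library. All 8 B-lineage markers checked were present in each group, T-cell and erythroid markers summed to at most 0.319 CPM (a gene's count scaled to a common library size) in any library. MEIS1 and HOXA9, known from KMT2A-rearranged leukaemias, were at 0 in TOM-1 and summed to between 140 and 159 CPM in RS4;11. Myeloid markers summed to between 10.2 and 26.7 CPM over all libraries. Of 3 fibroblast markers only COL1A1 had counts, at 3.43 to 7.7 CPM in RS4;11 and at most 0.369 CPM in TOM-1. TOM-1 control replicate 3 stood apart. Only 14963 genes had a read there (19857 to 21997 elsewhere), and the chi-square per degree of freedom against its own replicates was 271 and 293, where no other pair of replicates passed 12.9. Its departure moved with transcript length. Relative to the mean of TOM-1 control replicates 1 and 2, the median gene under 2 kb stood at 1.88 times and the median gene of 10 kb or more at 0.408 times. Among the decay factors its level was 0.19 times that mean for SMG1, 0.265 for SMG8, 0.393 for SMG6 and 0.501 for UPF2, whereas SMG5 stood at 1.36 and SMG9 at 1.4 times. UPF1 (0.966), UPF3A (0.911) and UPF3B (0.895) were close to the other control libraries. The factors did not all follow the trend by length. SMG9 (5510 bases) and UPF1 (5348 bases) lay above the median gene of 5 to 10 kb, at 0.567 times. SMG8 (3477 bases) lay far below the median gene of 2 to 5 kb, at 0.98 times. UPF2 (5569 bases), SMG6 (5960) and SMG1 (16115) were low, as the medians of their lengths were. The tests of the 9 factors against ADI-PEG20 and between the lines were therefore run with and without this library, and the part of RNA quality in it was not tested.

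UPF3B was the decay factor that changed most with ADI-PEG20, and it did so in TOM-1. UPF3B (ENSG00000125351) lies on chromosome X, 119805311 to 119852998 on the minus strand (GENCODE 29, GRCh38). Its mRNA stood at 61.2, 55.5 and 52.2 CPM in the TOM-1 control libraries and at 125, 117 and 114 CPM with ADI-PEG20. Every treated library lay above every control library, and the departing control library was the lowest of its group by only a small margin. The group means were 56.3 ± 4.55 and 119 ± 5.55 CPM (SD, n = 3), a 2.11-fold rise, or 1.07 on the log2 scale (SE 0.12, edgeR adjusted p = 5.32e-05). Without TOM-1 control replicate 3 the log2 fold change was 1.02 (adjusted p = 3.8e-09). The call held in each of the 12 fits that left out 1 library, with log2 fold changes from 1.02 to 1.11 and an adjusted p of at most 0.000749. CPM is a share of the sequenced RNA. In bulk samples a change in the number of cells with the transcript and a change in its amount per cell cannot be told apart.

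In RS4;11 the same treatment left UPF3B where it was within the spread of the libraries. The control libraries had 57.9, 58.5 and 55.3 CPM and the treated libraries 51.1, 59.9 and 60.8 CPM, and the groups overlapped. The log2 fold change was 0.00 (SE 0.11, adjusted p = 1). The effect of ADI-PEG20 on UPF3B was larger in TOM-1 than in RS4;11 by 1.07 on the log2 scale (SE 0.16, edgeR adjusted p = 0.0018), and the value leaving out TOM-1 control replicate 3 was 1.02 (adjusted p = 6.65e-07). That difference held in all 12 fits that left out 1 library, with an adjusted p of at most 0.0114. The lines had entered the treatment alike in this gene: in control culture TOM-1 differed from RS4;11 by -0.02 (SE 0.11, adjusted p = 0.902).

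**Figure D1:**
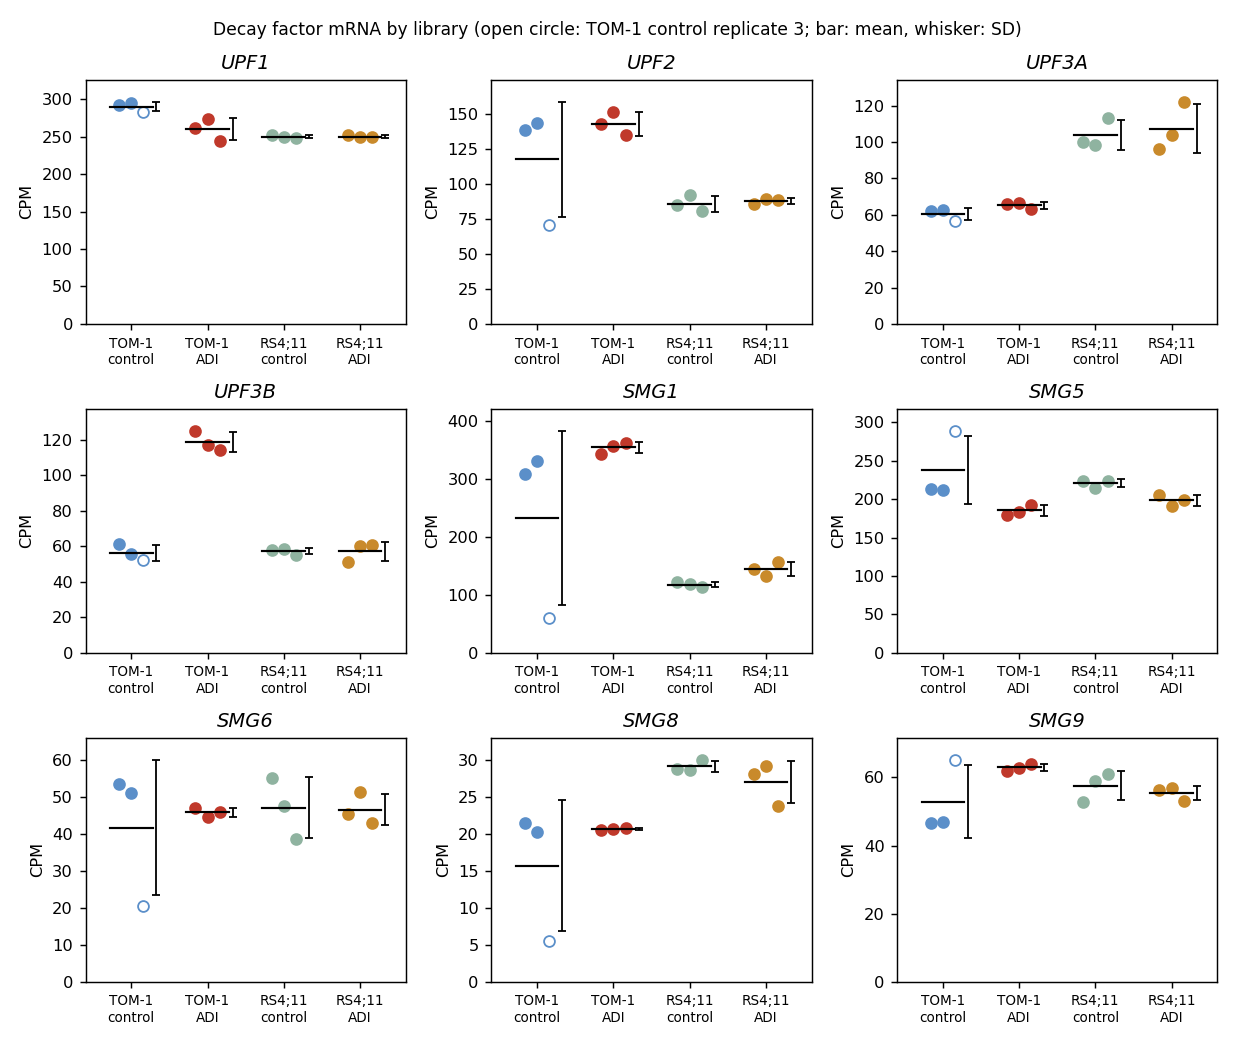
Levels of the 9 decay factor mRNAs in CPM (y axis) in each library of the 4 groups (x axis). Points are libraries, bars the group mean and whiskers the SD over 3 libraries, and the open circle is TOM-1 control replicate 3. UPF3B stands at 114 to 125 CPM in treated TOM-1 and at 61.2 CPM or less in every other library, and the open circle lies far below its group for UPF2, SMG1, SMG6 and SMG8.

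UPF3A is the paralog of UPF3B. It competes for the same place on UPF2 and is the weaker activator of decay. UPF3A (ENSG00000169062) lies on chromosome 13, 114281584 to 114305817 on the plus strand. In TOM-1 it had 61.9, 62.7 and 56.8 CPM in control culture and 66.1, 66.2 and 63.1 CPM with ADI-PEG20. The treated libraries all lay above the controls, but by little: the log2 fold change was 0.11 (SE 0.12, adjusted p = 0.548), and 0.06 without TOM-1 control replicate 3 (adjusted p = 0.659). In RS4;11 UPF3A had 100, 98.4 and 113 CPM in control culture and 95.9, 104 and 122 CPM with ADI-PEG20. These groups overlapped (log2 fold change 0.05, SE 0.12, adjusted p = 1). UPF3A was called between the lines in both conditions. It was lower in TOM-1 in control culture by a log2 difference of -0.78 (SE 0.12, adjusted p = 0.000276) and under ADI-PEG20 by -0.72 (adjusted p = 0.000367), and no library of one line overlapped the other. Both calls held in all 12 fits that left out 1 library. The transcripts of UPF3A and UPF3B share no run of 50 bases, and 2.65% of the 50-base words of UPF3A occur in its 3 processed copies, so reads of the pair can be told apart.

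The balance within the pair was read as a ratio. Its libraries did not overlap between the lines, nor between control and treated TOM-1, and they overlapped between control and treated RS4;11. Counts were divided by the length of the longest annotated transcript, 2378 bases for UPF3B and 2423 for UPF3A, and the ratio was taken within each library, where scaling cancels. UPF3B per UPF3A was 1.01, 0.902 and 0.937 in TOM-1 control culture and 1.92, 1.81 and 1.84 with ADI-PEG20. In RS4;11 it was 0.588, 0.606 and 0.498 in control culture and 0.543, 0.585 and 0.509 with ADI-PEG20. With these lengths the pair was near parity in untreated TOM-1, UPF3B exceeded UPF3A in treated TOM-1, and UPF3A exceeded UPF3B in every RS4;11 library. The parity depends on the length chosen: with the median annotated transcript the means in untreated TOM-1 were 40.6 CPM per kilobase for UPF3B and 63.6 for UPF3A, and in treated TOM-1 85.7 and 68.5. Folds of the ratio do not depend on it. The ratio was 1.96-fold higher with ADI-PEG20 in TOM-1 and 0.969-fold in RS4;11. Between the lines it was 1.69-fold higher in TOM-1 in control culture and 3.41-fold under ADI-PEG20. An exact two-sided permutation test gave p = 0.1 for the TOM-1 effect and for both line differences, which is the smallest value 3 against 3 libraries allow, and p = 0.7 for RS4;11. They belong to 12 such tests over 3 ratios and 4 contrasts, and the Benjamini-Hochberg adjusted values from these permutation tests were 0.171 and 0.84.

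The promoters of the pair are shown because their mRNAs moved apart under the same treatment in the same cells. The sequences are from RefSeq (GRCh38.p14) and run 5′ to 3′ on the gene's strand up to the base before the annotated gene, UPF3B at chrX:119852999-119853213 on the minus strand and UPF3A at chr13:114281351-114281583 on the plus strand. Capitals mark TGACG, the core of the cAMP response element that ATF and CREB factors bind, searched on both strands.
UPF3B: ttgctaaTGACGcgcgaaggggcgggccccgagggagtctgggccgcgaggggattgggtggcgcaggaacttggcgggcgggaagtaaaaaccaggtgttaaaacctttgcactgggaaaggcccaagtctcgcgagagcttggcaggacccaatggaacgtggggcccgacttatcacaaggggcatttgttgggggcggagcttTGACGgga
UPF3A: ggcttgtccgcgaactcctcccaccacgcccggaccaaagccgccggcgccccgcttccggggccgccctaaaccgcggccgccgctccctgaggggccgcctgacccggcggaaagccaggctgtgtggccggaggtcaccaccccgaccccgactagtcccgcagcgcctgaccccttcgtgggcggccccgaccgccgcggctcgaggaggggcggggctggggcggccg
TGACG occurs 2 times in the UPF3B stretch and 0 times in that of UPF3A. In the 250 bases before the start it occurs in 21.2% of 35116 RefSeq promoters, and among the 8 of these factors that have a promoter entry it occurs in UPF3B and SMG1. TGATGNAA, the composite C/EBP-ATF element, occurs in 3.14% of promoters, and the full element TGACGTCA, which contains TGACG, in 1.65%. Neither has a match in the windows of these 8. A match is only a run of letters in this window.

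UPF1 (ENSG00000005007), the helicase on which the other factors assemble, lies on chromosome 19, 18831938 to 18868236 on the plus strand. It was among the highest of the factors per kilobase in every group. In TOM-1 it had 292, 295 and 283 CPM in control culture and 262, 273 and 244 CPM with ADI-PEG20, with no overlap. The log2 value of -0.16 (SE 0.09, adjusted p = 0.216) did not pass the threshold, and that of -0.18 (SE 0.06, adjusted p = 0.0187) without TOM-1 control replicate 3 did. In RS4;11 the 6 libraries ran from 248 to 252 CPM, and the log2 fold change was 0.00 (SE 0.09, adjusted p = 1). The difference between the lines in this effect was not called with all libraries (-0.16, adjusted p = 0.48) or without that library (-0.18, adjusted p = 0.102).

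UPF2 (ENSG00000151461; chromosome 10, 11920022 to 12043170, minus strand), the bridging factor, stood higher in TOM-1 than in RS4;11 and did not pass the threshold with ADI-PEG20 in either line. The TOM-1 control libraries had 139, 144 and 70.6 CPM and the treated libraries 143, 152 and 135 CPM. The low value is the departing library. The log2 fold change was 0.28 (SE 0.21, adjusted p = 0.352), and 0.02 (adjusted p = 0.922) without it. RS4;11 had 85.2, 92 and 80.8 CPM in control culture and 85.7, 89.6 and 88.9 CPM with ADI-PEG20 (log2 fold change 0.03, SE 0.21, adjusted p = 1). Under ADI-PEG20 UPF2 was higher in TOM-1 by 0.70 on the log2 scale (SE 0.21, adjusted p = 0.0167). In control culture the difference was 0.45 (adjusted p = 0.121), and 0.71 (adjusted p = 3.75e-08) without TOM-1 control replicate 3.

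SMG1 (ENSG00000157106; chromosome 16, 18804853 to 18926454, minus strand), the kinase, showed the largest difference between the lines and rests most on the departing library. TOM-1 control replicates 1, 2 and 3 had 308, 330 and 60.5 CPM, and the treated libraries 343, 357 and 362 CPM. RS4;11 had 122, 118 and 113 CPM in control culture and 144, 132 and 156 CPM with ADI-PEG20. In both lines all treated libraries lay above all controls. In TOM-1 the log2 fold change was 0.60 (SE 0.42, adjusted p = 0.313), and 0.15 (SE 0.07, adjusted p = 0.0912) without that library. For RS4;11 the log2 fold change was 0.29 with all libraries (SE 0.42, adjusted p = 1). Its SE fell to 0.06 when TOM-1 control replicate 3 no longer entered the shared estimate of the spread, and the same rise of 0.29 was then called (adjusted p = 0.0484). That was 1 of the 12 fits that left out 1 library, and the only 1 to call it. It was called in 0 of 9 other alternatives, among them the RS4;11 groups fitted alone. The effect did not differ between the lines past the threshold (0.31, adjusted p = 0.813, and -0.14, adjusted p = 0.278, without TOM-1 control replicate 3). Under ADI-PEG20 SMG1 was 2.46-fold higher in TOM-1 (log2 1.30, SE 0.43, adjusted p = 0.0255). In control culture the log2 difference was 0.99 (SE 0.42, adjusted p = 0.095), and 1.44 (SE 0.07, adjusted p = 8.98e-14) without the departing library.

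The count of SMG1 is uncertain in size because the genome holds 7 copies, SMG1P1 to SMG1P7. They align within bases 414 to 4646 of the 16115-base SMG1 transcript at 96.61% to 98.47% identity over the aligned part. SMG1P7 aligns over 1385 bases only (2748 to 4108 of SMG1), of its own 2704. Of the 50-base words of SMG1, 17.2% occur in a copy, and 10.9% of its 100-base words. A stretch of coding sequence, bases 474 to 533 of that transcript, shows how few letters separate SMG1 from one of the copies, with capitals at the 2 bases that differ.
SMG1: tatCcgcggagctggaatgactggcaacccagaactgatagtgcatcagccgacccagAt
SMG1P3: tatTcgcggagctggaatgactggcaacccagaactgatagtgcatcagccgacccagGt
Reads from such a stretch may have been counted for either gene or dropped, and which of these was done is not given in the sources used here. The copies took 12.9%, 12% and 22.5% of the counts of SMG1 and copies together in TOM-1 control replicates 1, 2 and 3. That share was 17.8% to 19.5% in treated TOM-1, 22.8% to 25.6% in RS4;11 control culture and 19.5% to 24.4% in treated RS4;11. In TOM-1 with ADI-PEG20, 2 of the 7 copies rose and 1 fell, and 3 rose and 1 fell without TOM-1 control replicate 3. Among all genes tested 15.9% rose and 15.9% fell, and 21.8% and 19.8% without that library. SMG1P3 rose by 1.37 on the log2 scale (SE 0.40, adjusted p = 0.0213, and 0.97 without that library), from 15.7, 13.4 and 3.75 CPM to 26.1, 28.3 and 31.1 CPM. SMG1P7 fell, from 7.53, 7.64 and 7.83 CPM to 1.37, 3.7 and 3.7 CPM (log2 -1.39, adjusted p = 0.00854). SMG1 and its copies summed to 354, 375 and 78.1 CPM in TOM-1 control culture and 417, 440 and 450 CPM with ADI-PEG20. In RS4;11 the sum was 146 to 159 CPM in control culture and 175 to 194 CPM with ADI-PEG20.

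SMG8 and SMG9 form a complex with SMG1 and hold its kinase activity in check. SMG8 (ENSG00000167447; chromosome 17, 59209400 to 59215247, plus strand) had 21.4, 20.2 and 5.52 CPM in TOM-1 control culture and 20.5, 20.7 and 20.8 CPM with ADI-PEG20. RS4;11 had 28.7, 28.6 and 30 CPM in control culture and 28.1, 29.1 and 23.8 CPM with ADI-PEG20. Neither treatment effect was called (log2 0.38, SE 0.35, adjusted p = 0.452 in TOM-1, and -0.11, SE 0.35, adjusted p = 1 in RS4;11), and the TOM-1 value was -0.02 without the departing library. All TOM-1 libraries lay below all RS4;11 libraries. The difference in control culture was -0.88 (adjusted p = 0.0727), and -0.48 (adjusted p = 0.00147) without TOM-1 control replicate 3. In GENCODE, SMG8 overlaps another same-strand gene over 11.2% of its exonic bases, so its count may hold reads of that gene.

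SMG9 (ENSG00000105771; chromosome 19, 43727992 to 43754990, minus strand) is a case where the call depends on the departing library. It had 46.7, 46.8 and 65.2 CPM in TOM-1 control replicates 1, 2 and 3, and 62, 62.9 and 63.9 CPM with ADI-PEG20. The departing library was above the treated ones, so that the groups overlapped. With all libraries the log2 fold change was 0.25 (SE 0.14, adjusted p = 0.198), and without that library SMG9 rose by 0.43 (SE 0.09, adjusted p = 0.000295). RS4;11 had 52.7, 59 and 61 CPM in control culture and 56.2, 56.9 and 53 CPM with ADI-PEG20 (log2 fold change -0.06, SE 0.14, adjusted p = 1). The effect was larger in TOM-1 by 0.31 (adjusted p = 0.354), and was 0.48 (adjusted p = 0.00234) without TOM-1 control replicate 3. Per kilobase, SMG8 per SMG9 was 0.727 and 0.685 in TOM-1 control replicates 1 and 2, 0.134 in replicate 3, and 0.515 to 0.524 with ADI-PEG20.

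SMG5 (ENSG00000198952; chromosome 1, 156249224 to 156282825, minus strand) was the other factor called in TOM-1, and it fell. It had 213, 212 and 289 CPM in control culture and 180, 183 and 193 CPM with ADI-PEG20, with no overlap. The log2 fold change was -0.36 (SE 0.13, adjusted p = 0.0471), and -0.20 (SE 0.06, adjusted p = 0.00977) without TOM-1 control replicate 3, which was the highest library. The call was lost in 5 of 12 fits that left out 1 library, those without any one of the treated TOM-1 libraries, RS4;11 control replicate 1 or treated RS4;11 replicate 1 (adjusted p up to 0.121). In RS4;11 SMG5 had 224, 215 and 224 CPM in control culture and 205, 191 and 199 CPM with ADI-PEG20. These groups did not overlap either, and the log2 fold change of -0.16 was not called (SE 0.13, adjusted p = 1, and 0.198 without TOM-1 control replicate 3). The effect did not differ between the lines past the threshold (-0.20, SE 0.18, adjusted p = 0.523). SMG5 did not differ between the lines in control culture (0.10, adjusted p = 0.576) or under ADI-PEG20 (-0.10, adjusted p = 0.56) past the threshold.

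**Figure D2:**
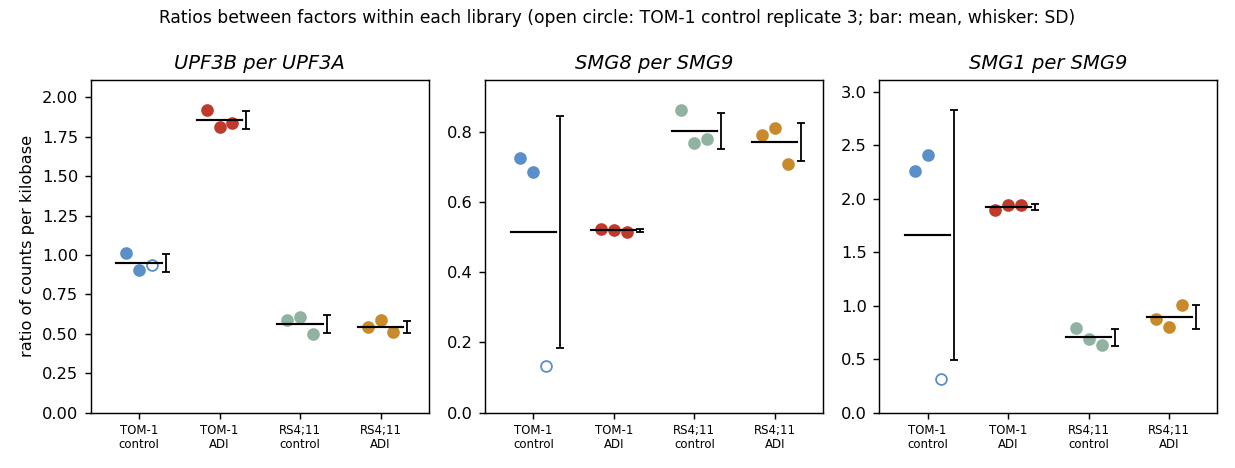
Ratios of counts per kilobase of longest transcript between pairs of factors (y axis) in each library of the 4 groups (x axis). Points are libraries, bars the mean and whiskers the SD over 3 libraries, and the open circle is TOM-1 control replicate 3. UPF3B per UPF3A is 1.81 to 1.92 in treated TOM-1 and at most 1.01 elsewhere, and the open circle departs from its group in the other 2 ratios.

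SMG6 (ENSG00000070366; chromosome 17, 2059839 to 2303771, minus strand), the endonuclease that cuts the target near its stop codon, passed no test. It had 53.7, 51 and 20.6 CPM in TOM-1 control culture and 47.1, 44.7 and 45.9 CPM with ADI-PEG20. RS4;11 had 55.2, 47.7 and 38.7 CPM in control culture and 45.4, 51.4 and 43.1 CPM with ADI-PEG20. The groups overlapped within both lines. The TOM-1 log2 fold change was 0.13 (SE 0.28, adjusted p = 0.78), and -0.19 (SE 0.12, adjusted p = 0.2) without the departing library, so that its sign depends on 1 library. In GENCODE 25.4% of the exonic bases of SMG6 lie opposite exons of other genes, and without a stated strand setting the reads of both strands cannot be told apart.

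Counted together, 2 of the 9 factors were called in TOM-1 with ADI-PEG20, 1 higher and 1 lower, where 31.9% of all genes tested were called (15.9% higher and 15.9% lower). Without TOM-1 control replicate 3 the calls were UPF3B and SMG9 higher and UPF1 and SMG5 lower, 4 of 9 against 41.6% of all genes (21.8% higher and 19.8% lower). The median log2 fold change of the 9 was 0.25 beside 0.05 for all genes, and 0.02 beside 0.00 without that library. The median moved with the departing library, whereas the value of UPF3B moved by little. Control and treated libraries were fully separate for 5 of the 9 factors, beside 46.2% of all genes, and for 7 of the 9 without that library, beside 59%. Of the 6 factors described as autoregulated, UPF3B rose and SMG5 fell, and without the departing library UPF1 was lower too. The remaining autoregulated factors (UPF2, SMG1 and SMG6) had log2 fold changes of 0.28, 0.60 and 0.13, and 0.02, 0.15 and -0.19 without it, none of them called.

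In RS4;11, edgeR called 0 of the 9 factors, against 0% of all genes tested, and 0 of the 9 had an unadjusted p under 0.05. DESeq2 and limma voom with sample weights also called 0. Without TOM-1 control replicate 3, SMG1 was called, 1 of 9 against 0.317% of all genes (0.202% higher), and 2 of the 9 (SMG1 and SMG5) had an unadjusted p under 0.05. Control and treated libraries were fully separate for SMG1 and SMG5, beside 16.8% of all genes (16.3% without that library). The difference of the effect between the lines was called for UPF3B alone, 1 of 9 where 11.9% of all genes were called (5.89% higher and 6.05% lower in TOM-1). Without the departing library it was called for UPF3B and SMG9, 2 of 9 against 30.4% (15.7% higher). For the effect in TOM-1 and its difference from RS4;11, the factors' shares of calls lay near or below those of all genes.

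**Figure D3:**
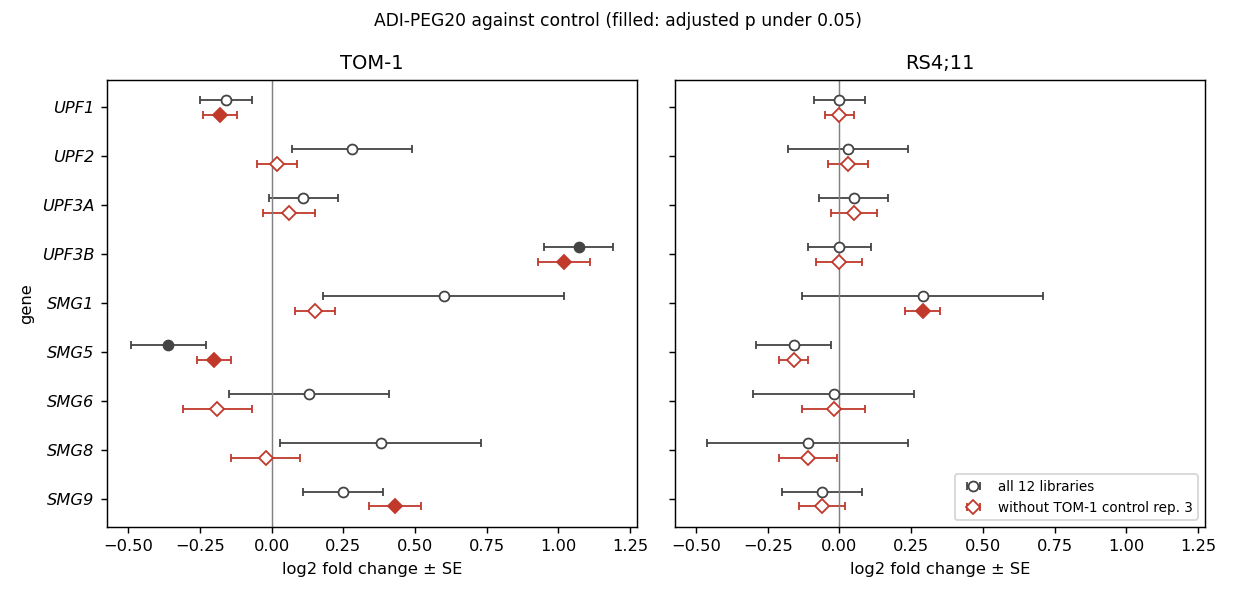
Log2 fold change of ADI-PEG20 against control (x axis, ± SE) for each decay factor (y axis) in TOM-1 and RS4;11. Circles are the fit to all 12 libraries and diamonds the fit without TOM-1 control replicate 3, filled where the adjusted p is under 0.05. UPF3B lies at 1.07 and 1.02 in TOM-1 and at 0.00 in RS4;11, and the SE of SMG1 in RS4;11 is 0.42 with and 0.06 without that TOM-1 library.

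Between the lines in control culture, 1 of the 9 factors was called with all libraries (UPF3A, lower in TOM-1), where 34.7% of all genes were called (18.4% lower). Libraries of the lines were fully separate for 3 of the 9, beside 42.7% of all genes, and for 7 of the 9 without TOM-1 control replicate 3, beside 66.5%. Without TOM-1 control replicate 3, 6 of 9 were called against 52.8% of all genes (25.4% higher and 27.5% lower). UPF1, UPF2 and SMG1 were higher in TOM-1, by 0.23, 0.71 and 1.44 on the log2 scale, and UPF3A, SMG8 and SMG9 were lower, at -0.74, -0.48 and -0.30. Under ADI-PEG20, UPF2, UPF3B and SMG1 were higher and UPF3A lower in TOM-1, 4 of 9 where 47.2% of all genes were called (23.1% higher and 24% lower). The lines were fully separate for 6 of the 9, beside 70.6% of all genes (68.7% without TOM-1 control replicate 3). The UPF3B difference under treatment was 1.05 (SE 0.12, adjusted p = 1.34e-05). The calls for UPF2 and SMG1 under ADI-PEG20 were lost in fits that left out 1 library of these groups, 5 for UPF2 (all but treated TOM-1 replicate 3) and 6 for SMG1, with adjusted p up to 0.0743 and 0.0973. Without TOM-1 control replicate 3 they had adjusted p of 6.81e-09 and 6.44e-14, and SMG8 (-0.39) and SMG9 (0.18) were called as well, 6 of 9 against 62.9% of all genes (31.4% higher and 31.5% lower). The treatment and line contrasts share libraries.

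**Figure D4:**
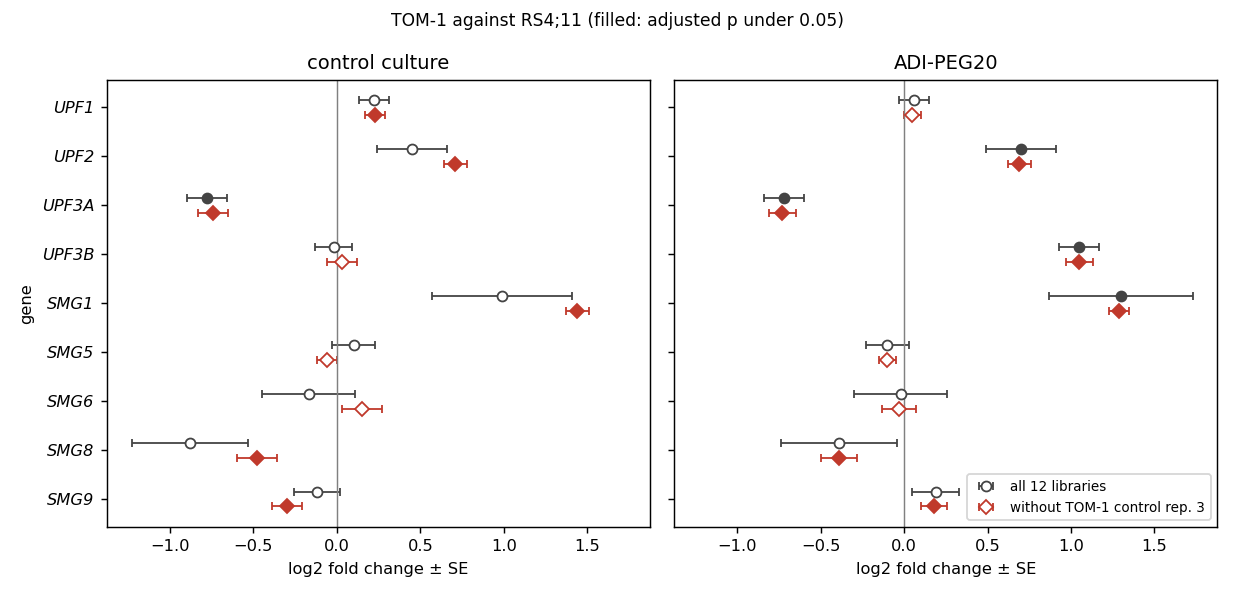
Log2 difference of TOM-1 against RS4;11 (x axis, ± SE) for each decay factor (y axis), in control culture and under ADI-PEG20. Circles are the fit to all 12 libraries and diamonds the fit without TOM-1 control replicate 3, filled where the adjusted p is under 0.05. UPF3A lies at -0.78 and -0.72 with all libraries, and UPF3B is at -0.02 in control culture and 1.05 under ADI-PEG20.

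Levels of the factors were set side by side per kilobase of the longest annotated transcript, and their order holds for that length only. In untreated RS4;11, SMG5 (48.5 CPM per kilobase), UPF1 (46.7) and UPF3A (42.9) led, followed by UPF3B (24.1), UPF2 (15.4) and SMG9 (10.4). SMG8, SMG6 and SMG1 closed the order at 8.37, 7.92 and 7.3 CPM per kilobase and overlapped with their neighbours, as did UPF1 with UPF3A. In TOM-1 control replicates 1 and 2, UPF1 (54.9) and SMG5 (46.6) led. UPF3A, UPF2 and UPF3B followed at 25.7, 25.3 and 24.5 CPM per kilobase with overlapping neighbours, then SMG1 (19.8), SMG6 (8.79), SMG9 (8.48) and SMG8 (5.99). With ADI-PEG20 in TOM-1, UPF3B (49.9) and UPF1 (48.6) had overlapping libraries. SMG5 (40.6), UPF3A (26.9), UPF2 (25.7), SMG1 (22) and SMG9 (11.4) followed, UPF3A and UPF2 overlapping. In treated RS4;11, UPF1, UPF3A and SMG5 were at 46.7, 44.3 and 43.5 CPM per kilobase, and UPF3B again at 24.1. The median annotated transcript gave another order. In treated TOM-1 UPF3B was then at 85.7 and UPF1 at 446 CPM per kilobase, and in TOM-1 control culture SMG1 (147) stood above UPF3A (63.6), and UPF2 (22.3) below SMG6 (70) and SMG9 (81.4). UPF1 and SMG5 led in TOM-1 control culture with either length.

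Some genes followed a factor closely over the 11 libraries other than TOM-1 control replicate 3. By Pearson's r of log2 CPM, PLSCR1 was the gene most like UPF3B (r = 0.989, and 0.983 over all 12 libraries), CNKSR1 most like UPF3A (0.990 and 0.979) and ZNF81 most like SMG1 (0.996 and 0.907). The points fall into 4 groups and 2 lines, so a high r is reached by any gene whose group means are spaced alike. Each gene named had the highest r of all genes compared. Among the factors themselves, UPF2 and SMG1 had r = 0.98 over 11 libraries and 0.97 over 12. SMG1 and SMG8 had r = -0.97 over 11 libraries and 0.27 over 12, a value that 1 library decides.

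Of 40 other genes of the pathway, chosen by role, 39 were tested and 20 were called in TOM-1, 7 higher and 13 lower, where 31.9% of all genes were called (15.9% higher and 15.9% lower). With the departing library left out 30 were called, 13 higher and 17 lower, where 41.6% of all genes were (21.8% and 19.8%). Their median log2 fold change was 0.02 beside 0.05 for all genes, and -0.11 beside 0.00 without that library. No difference between roles was tested. Among 12 genes for decapping, deadenylation and exonucleases, 4 were called, all higher, and without the departing library 6 were higher and CNOT8 lower. DCP1B, a cofactor of the decapping enzyme, went from 15.5, 15.4 and 11.1 CPM to 30.5, 35.3 and 38.4 CPM (log2 fold change 1.31, SE 0.17, adjusted p = 0.000161, and 1.17 without the departing library). DCP1A, its paralog, rose from 62.2, 64.7 and 35.9 CPM to 107, 113 and 114 CPM (1.04, adjusted p = 0.00135, and 0.81 without it). The 5′-to-3′ exonuclease XRN1 rose by 1.22 (SE 0.42, adjusted p = 0.0442). The value was 0.77 (adjusted p = 3.97e-08) without the departing library, which had 16.1 CPM against 82.6 and 86.6 in its replicates. The XRN1 call was lost without any one of the 9 treated TOM-1 or RS4;11 libraries (adjusted p up to 0.108). DCP2, the decapping enzyme itself, was the remaining call.

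Of 10 genes of the exon junction complex and its periphery, 5 fell and 1 (CASC3) rose in TOM-1. Without the departing library 6 fell and 2 (CASC3 and MAGOHB) rose. Among all genes tested 15.9% rose and 15.9% fell, and 21.8% and 19.8% without that library. RNPS1, a peripheral factor that links the complex to decay, fell from 375, 371 and 532 CPM to 166, 176 and 173 CPM (log2 -1.31, SE 0.14, adjusted p = 5.01e-05, and -1.12 without TOM-1 control replicate 3). RBM8A, a core subunit, stood at -0.82 on the log2 scale (adjusted p = 0.000789, and -0.66 without that library), and 25% of its exonic bases lie opposite other genes. EIF4A3, MAGOH and ACIN1 were the other members called lower. Of 10 recruiters, helicases and chaperones 8 were called, 2 higher and 6 lower, beside 31.9% of all genes. Without the departing library 4 were higher and 6 lower, beside 41.6% of all genes called. TELO2 and TTI1, whose complex supports the folding of SMG1 and related kinases, fell from 119, 120 and 190 CPM to 71, 65.9 and 58 CPM (log2 -1.14, adjusted p = 0.000545, and -0.88 without the departing library) and from 58.8, 57.4 and 51.3 CPM to 34.2, 36.5 and 33 CPM (-0.69, adjusted p = 0.00154, and -0.75 without it). The ATPase RUVBL2, of the same chaperone route, stood at -1.22 on the log2 scale (SE 0.26, adjusted p = 0.00434). It was -0.71 without the departing library, which held 437 CPM against 179 and 200. PNRC2, which ties UPF1 to decapping, rose by 0.64 (adjusted p = 0.0122, and 0.44 without the departing library), and its call was lost without treated TOM-1 replicate 1 (adjusted p = 0.0554).

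Of 7 tested genes for termination, the cap, the poly(A) tail and Staufen, NCBP2 and PABPC1 fell in TOM-1 and 0 rose with all libraries. Once the departing library was left out ETF1 and NCBP1 were lower too and STAU2 was higher. Beside these counts, 15.9% of all genes rose and 15.9% fell in TOM-1, and 21.8% and 19.8% without that library. In the difference between the lines 7 of the 39 genes were called, 2 higher and 5 lower in TOM-1, where 11.9% of all genes were. Leaving out the departing library gave 20, 9 higher and 11 lower, where 30.4% of all genes were called. DCP1B (1.35), RNPS1 (-1.13), TTI1 (-0.81) and PABPC1 (-0.72) held in all 12 fits that left out 1 library. In RS4;11 0 of the 39 were called by edgeR, with 1 at an unadjusted p under 0.05, and XRN1 was called without the departing library (0.37, adjusted p = 0.0255). Between the lines in control culture 11 of the 39 were called, 2 higher and 9 lower in TOM-1, beside 34.7% of all genes. The count was 20, 7 higher and 13 lower, without TOM-1 control replicate 3, beside 52.8%. NCBP1, the large cap-binding subunit, had the largest of these differences at -1.35 (SE 0.17, adjusted p = 5.23e-05), and NBAS, a recruiter of the pathway, was higher by 0.99 (adjusted p = 0.000119). These were -1.17 and 1.11 without that library. Under ADI-PEG20 20 of the 39 were called, 8 higher and 12 lower, beside 47.2% of all genes, and 29, 13 higher and 16 lower, without it, beside 62.9%.

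**Figure D5:**
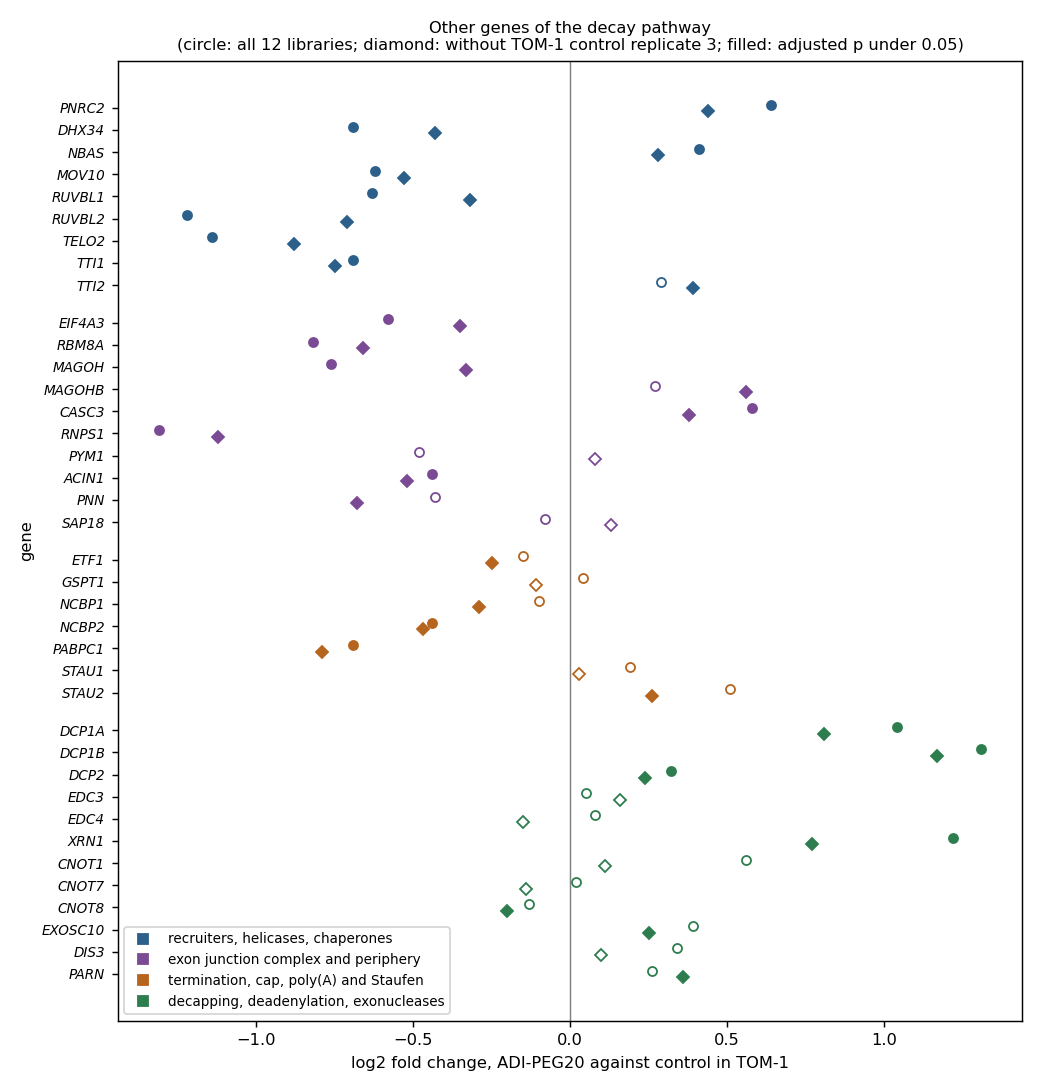
Log2 fold change of ADI-PEG20 against control in TOM-1 (x axis) for 38 of the 39 other genes tested of the decay pathway (y axis), coloured by role. Circles are the fit to all 12 libraries and diamonds the fit without TOM-1 control replicate 3, filled where the adjusted p is under 0.05. The 4 decapping and exonuclease genes called with all libraries lie above 0, and 5 of the 6 called exon junction genes lie below 0, with RNPS1 at -1.31.

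A list of 15 genes whose transcripts are described as degraded by the pathway was read beside the factors. Several of them are also known to be induced by amino acid shortage, and the part of each route was not tested. In TOM-1 8 rose and 2 fell, where 15.9% of all genes rose and 15.9% fell, with a median log2 fold change of 0.90 beside 0.05 for all genes. After leaving out the departing library 9 rose and 2 fell (21.8% and 19.8% of all genes). With the TOM-1 groups fitted alone 6 rose and 0 fell. ATF3, a stress-induced transcription factor, had the largest change, from 11.1, 11.2 and 13.4 CPM to 95.6, 96.4 and 92.9 CPM (log2 3.00, SE 0.16, adjusted p = 1.22e-06, and 3.08 without the departing library). GADD45A, a growth arrest gene whose mRNA is a well-described decay target, rose from 44.6, 45.9 and 64 CPM to 166, 165 and 153 CPM (1.65, SE 0.15, adjusted p = 1.84e-05, and 1.83 without it). SLC7A11, the cystine transporter, rose by 1.98 (adjusted p = 0.00239, and 1.57 without the departing library). DDIT3 rose by 2.22. BAG1 fell, at -1.04 (adjusted p = 0.0175) and at -0.46 without the departing library, and its call was lost without treated TOM-1 replicate 3 (adjusted p = 0.0662). ATF4 was the other target called lower, from 527, 516 and 928 CPM to 439, 437 and 435 CPM, with 928 CPM in the departing library. Its call held in 9 of the 12 fits that left out 1 library, with log2 fold changes from -0.77 to -0.26. The snoRNA host gene GAS5 was not called with all libraries (0.25, adjusted p = 0.463). Leaving out TOM-1 control replicate 3 it was (0.71, adjusted p = 3.74e-09), a gene chosen after its values were seen. In RS4;11 0 of the 15 were called by edgeR and 0 had an unadjusted p under 0.05, and without the departing library SLC7A11 was called (0.66, adjusted p = 0.00959). The difference between the lines was called for 5 of the 15, each higher in TOM-1 with all libraries, where 11.9% of all genes were called. In the fit without the departing library, and with voom weights, it was called for 9, 8 higher and 1 lower (30.4% of all genes without that library).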

How the data were processed

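The authors deposited whole-number read counts per Ensembl gene, not normalized. STAR, SAMtools, featureCounts and hg38 are named in the submitters' processing notes; versions, annotation release, strand setting and the rule for shared or multi-mapped reads are not given in the sources used here, so counts of overlapping or duplicated genes can be inflated or reduced. Per the labels, libraries were made by poly(A) capture. Groups and replicate numbers came from sample titles. Symbols were found for 60463 of 60664 identifiers, and GENCODE 29 held 58396.

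Counts were fitted in R 4.3.3 with edgeR 4.0.16 (filterByExpr, TMM, glmQLFit, glmQLFTest) over all 12 libraries in 4 groups, and again without TOM-1 control replicate 3 (18321 genes tested). P-values were adjusted by Benjamini-Hochberg over all genes, with a threshold of 0.05. CPM are TMM-scaled; SE is the absolute log2 fold change divided by the square root of F. The 5 contrasts tested were ADI-PEG20 against control in each line, their difference, and TOM-1 against RS4;11 in each condition. Of the other pathway genes and described targets, the text names up to 4 per direction by size of change among called genes with a mean of at least 5 CPM and no overlap between groups; genes named beyond these were chosen after their values were seen. The script was tested on simulated data. Alternatives were other scalings, filters, DESeq2 1.42.0, limma 3.58.1 voom weights, each contrast's groups alone, a replicate block, length offsets and each library left out. Members and lists were chosen with earlier results of these data known. Every pair of replicates differed beyond sampling noise (lowest chi-square per degree of freedom 4.93). Of the other pathway genes, 1 enters the counts over the list and is not reported here by name.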

Additional observations from a re-analysis of the deposited data

Results flagged for a closer look

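The effect of ADI-PEG20 differed between the lines past the threshold (edgeR, test of the difference, TOM-1 minus RS4;11) for 1 decay factor and 10 of the named pathway genes and targets, given here as log2 values. For UPF3B the difference was 1.07 (adjusted p = 0.0018), from 1.07 in TOM-1 and 0.00 in RS4;11. Among decapping cofactors it was 1.35 for DCP1B (adjusted p = 0.00386) and 0.90 for DCP1A (adjusted p = 0.0426). The DCP1A difference was lost without any one of the 9 libraries other than the TOM-1 controls, with adjusted p up to 0.121. RNPS1 of the exon junction periphery differed by -1.13 (adjusted p = 0.00364). TELO2 and TTI1 of the kinase chaperone differed by -0.90 (adjusted p = 0.0341) and -0.81 (adjusted p = 0.0127), and the TELO2 difference was lost without any one of those same 9 libraries, with adjusted p up to 0.0863. PABPC1, which coats the poly(A) tail, differed by -0.72 (adjusted p = 0.0109). Of the described targets, ATF3 differed by 2.79 (adjusted p = 7.11e-05), DDIT3 by 2.38 (adjusted p = 0.00295), GADD45A by 1.64 (adjusted p = 0.000741) and SNHG12 by 1.35 (adjusted p = 0.0113). DDIT3 lies opposite other genes over 31.6% of its exonic bases. Groups of 3 libraries are too small for a per-gene search for outlying values, and TOM-1 control replicate 3 stands apart by its whole profile.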

How the results depend on the processing

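No called value of the 9 factors changed direction under any alternative, nor did the values compared for the other named genes. Sign changes of values called in neither setting are not counted. Outside these values, NBAS was called higher in TOM-1 with all libraries. Its log2 fold change there ran from -0.05 to 0.42 over 9 alternatives other than leaving out 1 library, with a call in 6. UPF3B in TOM-1 and in the difference, and UPF3A between the lines, kept their calls under every alternative run. DESeq2 size factors, upper-quartile scaling and a filter at a mean of 10 counts changed no call of a decay factor. Of the 9 factors, the count called in TOM-1 (2) was 1 with no filter and with the TOM-1 groups alone. It was 3 with length offsets, 4 with voom weights, and 1 to 4 with each library left out. In RS4;11 (0) it was 0 to 1 with each library left out. For the difference (1) it was 2 with voom weights and 1 to 2 with each library left out. Between control cultures (1) it was 3 with no filter, 4 with DESeq2, 6 with voom weights, 3 with length offsets and 1 to 6 with each library left out. Under ADI-PEG20 (4) it was 6 with voom weights, 6 with the treated groups alone and 2 to 6 with each library left out. Of the 39 other pathway genes, 8 were called in TOM-1 with the TOM-1 groups alone and 18 with no filter. The count was 19 with either other scaling and 21 with a filter at a mean of 10 counts. It was 24 with length offsets, 30 with voom weights and 13 to 30 with each library left out. The difference gave 10 with length offsets, 12 with DESeq2, 20 with voom weights and 4 to 20 with each library left out. Of the 15 described targets, 6 were called in TOM-1 with the TOM-1 groups alone and 9 with a replicate block. The count was 11 with length offsets, 12 with voom weights and 7 to 11 with each library left out. The difference gave 6 with no filter, 7 with length offsets, 9 with voom weights and 5 to 9 with each library left out. Levels per kilobase moved beyond their SD in 33 of 36 cases when the median transcript length replaced the longest. The fit to a contrast's own groups was not run for the difference, which needs all 4. Same-numbered replicates deviated together little (r from -0.06 to 0.14 over 18 pairs, 1 above 0.1). The highest r was between replicate 3 of RS4;11 control culture and replicate 3 of treated RS4;11. Groups of 3 libraries are too small to tell from this whether the numbers pair the libraries. With the replicate number as a block the counts for the 9 factors were 2, 0, 1, 1 and 4 in the 5 contrasts and 20 and 7 for the other genes, as without it, and among the named genes only ATF4 in TOM-1 (-0.56, adjusted p = 0.0507) and GAS5 between control cultures (0.65, adjusted p = 0.0529) lost their calls. The cause of these changes was not tested.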
